A study of Mus musculus with 12 samples.

Results

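The genes described here are 40 mouse genes of glycolysis and of the response to low oxygen, taken as a list of names and out of 20144 named genes on the array. They were followed in mice with floxed Foxc1 and Foxc2, 2 forkhead transcription factors, together with a Cre recombinase activated by tamoxifen. All 12 samples carry these alleles, so the controls are floxed too. There are 6 groups with 2 samples each. Mice aged 8 weeks were given tamoxifen into the peritoneum on 3 days running, and their glomeruli, the kidney's filtering units, were taken on day 7; control glomeruli came from mice with no agent. Podocytes, epithelial cells whose foot processes cover the capillaries of the glomerulus, were expanded from glomeruli of adult mice and kept as primary cultures with tamoxifen or mock-treated for 4 days, and with tamoxifen or mock-treated for 7 days. The labels call the Cre inducible without naming the promoter or the cell type that drives it, and a treated sample differs from its control by the drug and by any recombination at once. The glomerular labels number separate mice, while those of the cultures do not say whether the numbers stand for separate cultures, so the spread behind their p-values may be technical.

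Glycolysis turns glucose into pyruvate in the cytosol, and lactate dehydrogenase and lactate export let it run without oxygen. When oxygen is scarce, the prolyl hydroxylases that normally mark the HIF alpha subunits for destruction slow down, and HIF switches on glucose transporters, nearly every glycolytic step, a brake on pyruvate entry into mitochondria, and genes for pH balance, mitophagy and collagen processing. Podocytes in culture and in the glomerulus are known to use glycolysis.

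Of the 40 members, 39 were tested. The single probe of Mxi1, a repressor of the Myc network, was above background on 0 of the 12 arrays. Hk2, the inducible hexokinase, was above background on 9 arrays, neither control glomerulus among them, and Car9, a cell surface carbonic anhydrase, on 11; the other 37 were read on all 12. Levels below are log2 signals relative to the 75th percentile of the same array, so that 0 is that percentile, and they compare samples for 1 gene and not genes with each other. The arrays had between 57.9% and 63.4% of spots above background, and the correlation across genes between replicates was 0.983 to 0.990. Foxc2 fell with tamoxifen in glomeruli, where it read -1.12 and -0.19 in treated mice and 2.10 and 2.24 in control mice. In cultures it was not well above background on any of the 4 tamoxifen arrays (-7.80 to -5.42) and read 1.38 to 1.76 on the mock arrays. Foxc1 read 0.92 and 1.09 in treated against 2.92 and 2.80 in control glomeruli (difference -1.86, limma adjusted p = 0.63). Its culture values were -5.78 and -1.74 with tamoxifen against 3.09 and 4.21 at day 4, and -8.20 and -3.26 against 2.62 and 4.33 at day 7 (limma adjusted p = 0.14 and 0.057). Tamoxifen replicate 1 of each day was not well above background for Foxc1, while replicate 2 was above it. Foxc1 was lower without overlap in each comparison and passed in none. Differences are given with limma's SE, and a called gene is one whose p, adjusted by Benjamini-Hochberg over the 15230 genes tested, was under 0.05. With 2 samples against 2, a two-sided exact permutation test of 1 gene cannot go below 0.333.

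In podocyte cultures most of the glycolysis and hypoxia genes had a higher mean with tamoxifen on both days, and 1 was called. The members also moved together with replicate number, with median gaps of 0.30 to 0.50 between replicates. Counting members therefore does not replicate the comparison. At day 4 the mean was higher for 35 of 39 members with a median difference of 0.41, where the median over all genes was 0.02. At day 7 it was higher for 36 of 39 with a median of 0.50, against 0.00 over all genes. In the limma fit 0 members were called at day 4 in either direction, with 6 at an unadjusted p under 0.05, where 0.0919% of all genes were called higher and 0.118% lower. At day 7 only 1 member was called, Pfkfb4, which rose, and 0 fell, where 0.453% of all genes were called higher and 0.519% lower; 8 members had an unadjusted p under 0.05. Both tamoxifen cultures lay above both mock cultures for 17 members at day 4, where 29% of all genes did so, and for 18 at day 7, where 22.1% did. Both lay below for 1 member at day 4 (21.4% of all genes) and for 2 at day 7 (19.1%). All 4 tamoxifen cultures lay above all 4 mock cultures for 11 members, Slc2a1, Hk2, Pfkl, Pfkfb4, Aldoa, Pgk1, Pgam1, Slc16a3, Higd1a, Hif1a and P4ha1, against 11% of all genes. All 4 lay below for 0 members, against 7.73%.

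**Figure D1:**
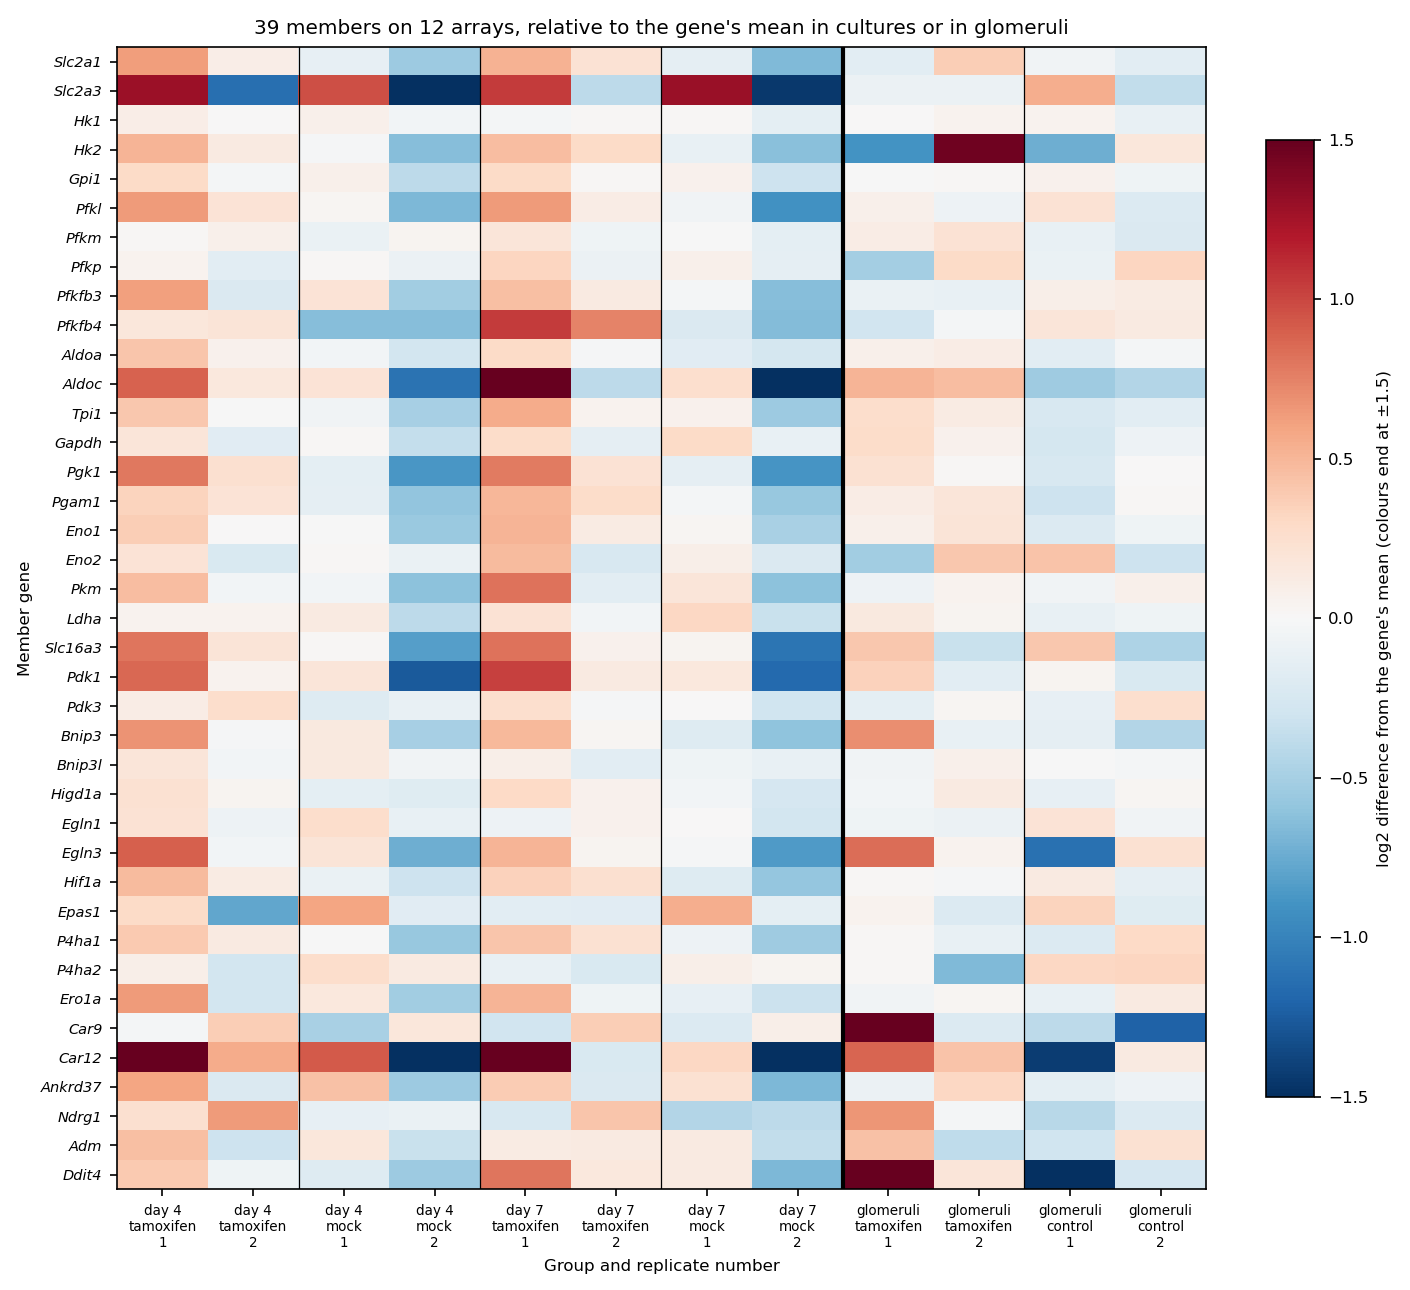
Each row is 1 of the 39 members tested and each column 1 array, coloured by the log2 difference from that gene's mean over the 8 cultures or over the 4 glomeruli, with colours ending at 1.5 either way. In cultures the tamoxifen replicate 1 columns are the reddest and the mock replicate 2 columns the bluest, on both days.

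The 8 cultures also differed by replicate number. Replicate 1 read higher than replicate 2 in all 4 culture groups for 31 of 39 members, where 16.2% of all genes did so. Ndrg1 and Car9 read lower in replicate 1 in all 4. With each gene set relative to its mean over the 8 cultures, the median over members was 0.40 and 0.01 in tamoxifen cultures 1 and 2 at day 4, against 0.02 and -0.50 in mock cultures 1 and 2. At day 7 it was 0.46 and 0.04 with tamoxifen and 0.00 and -0.53 in mock cultures. Tamoxifen replicate 2 therefore stood level with mock replicate 1 on both days, and the medians over all genes stayed between -0.03 and 0.03. What the numbers stand for is not given in the labels, and the calls in these Results are from a fit without a term (a block) for them. With the replicate number as a block within each tissue, limma called 2 members at day 4, Pgk1 and Slc16a3. At day 7 that fit called 8 members, Pfkfb4, Pfkl, Tpi1, Pgk1, Eno1, Slc16a3, Pdk1 and Hif1a.

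Cell type markers differed on the same culture arrays. Of 12 podocyte markers 5 lay lower in all 4 tamoxifen than in all 4 mock cultures and 2 lay higher, and 1 was called lower at day 7. Their summed signal, in multiples of the array's 75th percentile, was 152 and 165 with tamoxifen against 168 and 167 in mock cultures at day 4, and 147 and 164 against 174 and 177 at day 7. At day 7, 1 of 7 parietal epithelial and 1 of 10 mesangial and mural markers were also called lower. The mesangial and mural markers summed to 516 to 568 with tamoxifen against 436 to 501 in mock cultures. The part of these markers' cell types in the members' values was not tested.

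**Figure D2:**
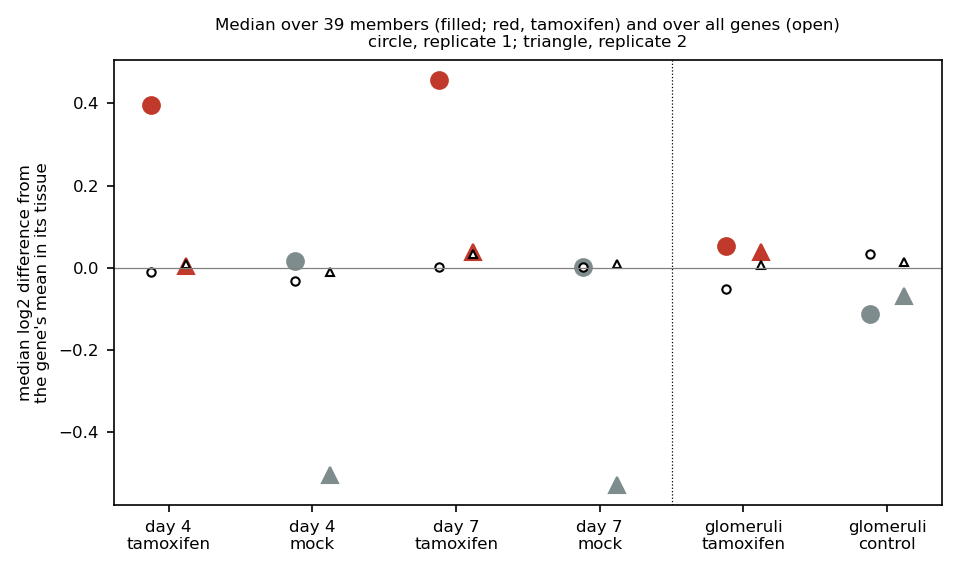
For each array, the filled symbol is the median over 39 members of the log2 difference from the gene's mean in its tissue and the open symbol the same over all genes tested, with circles for replicate 1 and triangles for replicate 2. In cultures the member medians run from -0.53 in mock to 0.46 in tamoxifen samples, while those of all genes stay near 0.

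Pfkfb4 was the 1 member called with tamoxifen. It encodes a bifunctional enzyme that sets the level of the sugar phosphate that activates phosphofructokinase. Pfkfb4 read 0.27 and -0.02 in tamoxifen cultures at day 7, against -0.99 and -1.42 in mock cultures, so that it rose by 1.33 on the log2 scale or 2.51-fold (SE 0.17, limma adjusted p = 0.021). At day 4 it read -0.61 and -0.58 with tamoxifen and -1.41 and -1.41 in mock cultures, a difference of 0.82 that did not pass (SE 0.17, limma adjusted p = 0.11). The groups did not overlap on either day. At day 4 the replicates of Pfkfb4 differed far less than its groups did. The day 7 call was lost without day 7 mock replicate 2 (limma adjusted p = 0.10), tamoxifen replicate 1 (0.14) or tamoxifen replicate 2 (0.069), and on the 4 day 7 arrays alone (0.32). A second Pfkfb4 probe was above background on 0 arrays.

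In glomeruli Pfkfb4 pointed the other way, with -1.51 and -1.26 in treated mice and -1.04 and -1.09 in control mice (difference -0.32, SE 0.17, limma adjusted p = 0.36). The test of the glomerular response minus the mean culture response called Pfkfb4, at -1.40 (SE 0.21, limma adjusted p = 0.034). Of the 12 fits without 1 array, 2 kept that call, with adjusted p-values up to 0.096 in the others. It was the 1 member called lower, and 0 were called higher, in a contrast that called 0.473% of all genes lower and 0.617% higher. Hif1a had the next lowest unadjusted p there, at -0.59 (limma adjusted p = 0.23). The response at day 7 minus that at day 4 called 0% of all genes in either direction and so 0 members, with 0 of 39 at an unadjusted p under 0.05; its largest member value was that of Pfkfb4, at 0.52 (SE 0.24).

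**Figure D3:**
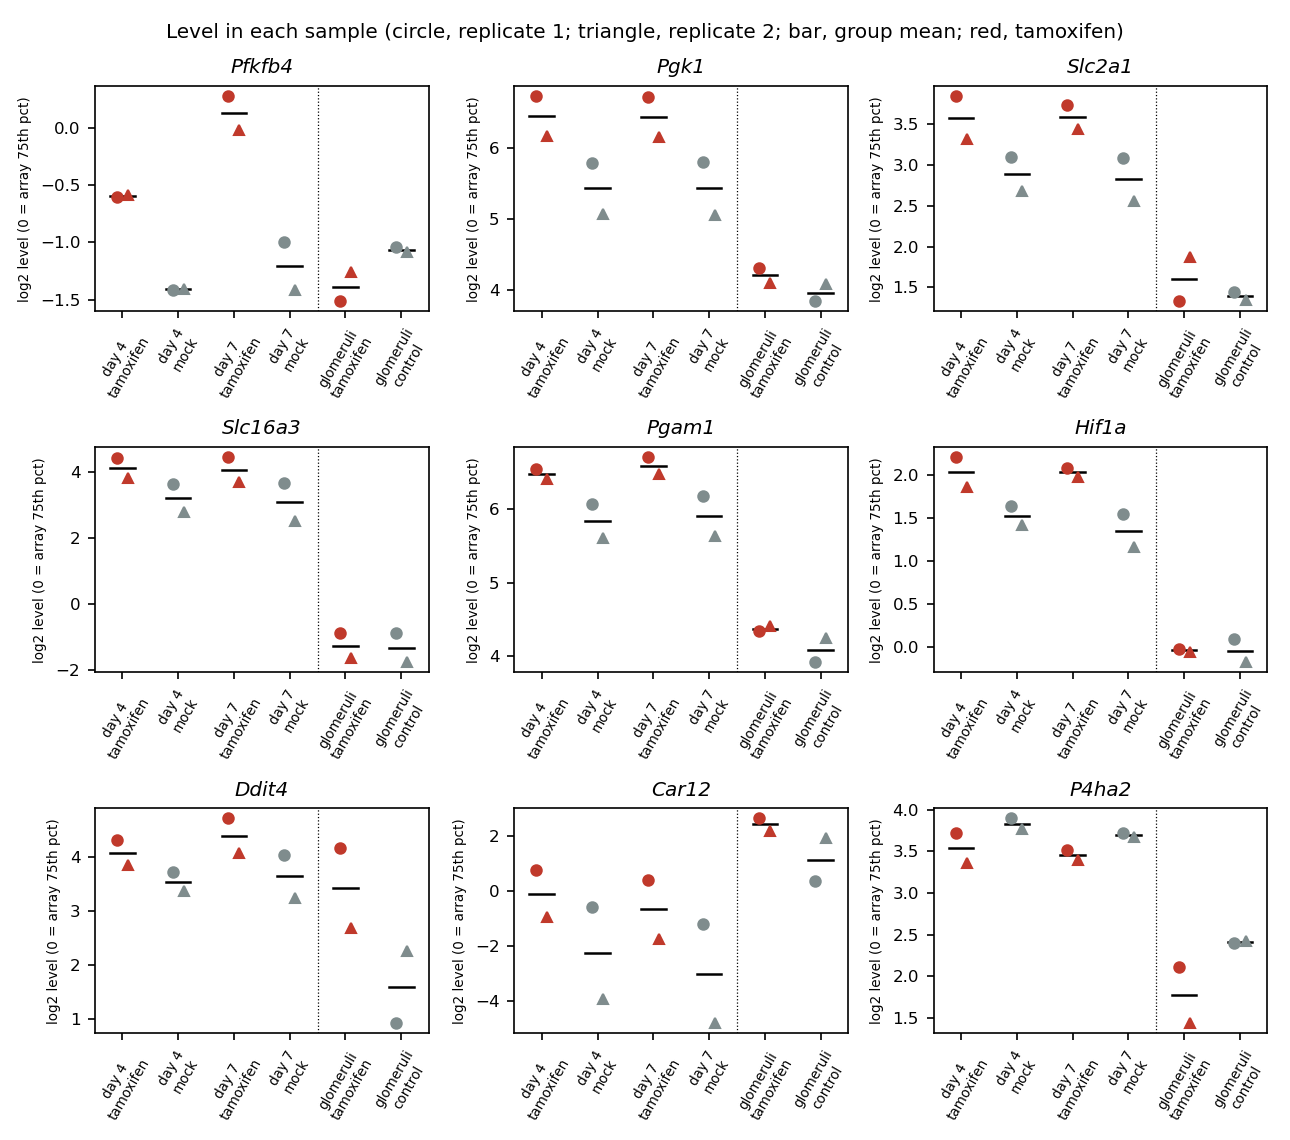
Each panel gives the log2 level of 1 member in the 12 samples, relative to the array's 75th percentile, with tamoxifen groups in red, their controls in grey, circles for replicate 1, triangles for replicate 2 and a bar at the group mean. Pfkfb4 separates tamoxifen from mock cultures on both days. Its replicates show little gap at day 4, and gaps of 0.30 with tamoxifen and 0.43 in mock cultures at day 7. Pgk1, Slc16a3 and Car12 show a gap between replicates in every culture group.

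Glucose uptake and the first steps of glycolysis showed the same order in cultures, and none of the genes named here was called. Slc2a1, the main basal glucose transporter GLUT1, read 3.84 and 3.32 in tamoxifen against 3.10 and 2.68 in mock cultures at day 4, and 3.74 and 3.44 against 3.09 and 2.56 at day 7. Those differences were 0.69 and 0.76 (SE 0.28, limma adjusted p = 0.41 and 0.31). The groups did not overlap. Slc2a3, the high-affinity transporter GLUT3, was at -0.60 and -3.01 with tamoxifen and -0.92 and -3.51 in mock cultures at day 4, so its replicates lay further apart than its groups. Hk2 read 0.27 and -0.10 with tamoxifen and -0.26 and -0.88 in mock cultures at day 4. The day 7 values were 0.22 and 0.04 with tamoxifen and -0.35 and -0.87 in mock cultures. Pfkl, the liver-type phosphofructokinase, gave the largest difference of the 3 phosphofructokinase genes, 0.75 at day 4 and 0.86 at day 7 (SE 0.36, limma adjusted p = 0.51 and 0.39). Its values were 2.55 and 2.12 with tamoxifen and 1.95 and 1.23 in mock cultures at day 4, and 2.55 and 2.03 against 1.86 and 1.01 at day 7. Pfkm and Pfkp, the muscle and platelet types, differed by -0.02 to 0.14. A second Pfkp probe gave 0.43 at day 4 and 0.16 at day 7, so the direction for Pfkp at day 4 depends on the probe. Hk1, the housekeeping hexokinase, differed by 0.03 and 0.06. Over the 11 members of the upper pathway, from the hexokinases to triose phosphate isomerase, the median difference was 0.40 at day 4 and 0.54 at day 7.

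The lower pathway was led by Pgk1, phosphoglycerate kinase, which makes the first ATP of the pathway. Pgk1 read 6.74 and 6.18 in tamoxifen and 5.80 and 5.07 in mock cultures at day 4. On day 7 the levels were 6.72 and 6.16 in tamoxifen and 5.81 and 5.05 in mock cultures. Every tamoxifen culture was thus above every mock culture, and the differences of 1.02 and 1.01, about 2.03-fold and 2.01-fold, did not pass (SE 0.35, limma adjusted p = 0.33 and 0.28). The gap between the numbered samples within each group was 0.56 to 0.76. Pgam1, phosphoglycerate mutase, read 6.54 and 6.41 with tamoxifen against 6.07 and 5.61 at day 4, and 6.70 and 6.48 against 6.18 and 5.63 at day 7 (differences 0.63 and 0.69, SE 0.23, limma adjusted p = 0.35 and 0.25). Eno1, enolase, differed by 0.46 and 0.54 and Pkm, pyruvate kinase, by 0.54 and 0.55, none of them called. Gapdh, often used as a loading reference, differed by 0.18 at day 4 and -0.01 at day 7 on its brightest probe, which represents it here. Its other 6 probes, all above background on 12 arrays, differed by 0.33 to 0.53 at day 4 and by 0.30 to 0.60 at day 7. The choice of probe thus changes the sign for Gapdh at day 7.

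In the lactate branch, Slc16a3, the lactate exporter MCT4, read 4.42 and 3.81 with tamoxifen against 3.64 and 2.79 in mock cultures at day 4. On day 7 the values were 4.44 and 3.68 with tamoxifen and 3.66 and 2.52 in mock cultures. All 4 tamoxifen values were above all 4 mock values, and the differences of 0.90 and 0.97 did not pass (SE 0.53, limma adjusted p = 0.62 and 0.53). A second Slc16a3 probe gave 0.85 and 0.88. Ldha, lactate dehydrogenase A, differed by 0.18 and 0.10 on the probe used and by 0.53 to 0.63 on its other 2 probes. Pdk1, a kinase that shuts pyruvate dehydrogenase, was at -0.57 and -1.38 with tamoxifen and -1.26 and -2.69 in mock cultures at day 4, and at -0.41 and -1.30 against -1.28 and -2.61 at day 7. Those groups overlapped, since tamoxifen replicate 2 lay just below mock replicate 1 each time (differences 1.00 and 1.09, SE 0.60, limma adjusted p = 0.63 and 0.54).

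The 2 HIF alpha subunits differed in opposite directions, neither of them called. Hif1a, which encodes the broadly expressed subunit, read 2.21 and 1.87 in tamoxifen against 1.64 and 1.43 in mock cultures at day 4. The day 7 values were 2.08 and 1.99 with tamoxifen and 1.55 and 1.16 in mock cultures. Its groups did not overlap on either day, with differences of 0.51 and 0.68 (SE 0.18, limma adjusted p = 0.34 and 0.15). Epas1, which encodes HIF-2 alpha, read 4.48 and 3.41 with tamoxifen and 4.79 and 4.02 in mock cultures at day 4. On day 7 the levels were 4.04 and 4.02 with tamoxifen and 4.74 and 4.05 in mock cultures. Its differences were -0.46 and -0.37 (SE 0.41, limma adjusted p = 0.78 and 0.82). A second Epas1 probe gave -0.24 and -0.11, and the other one gave 0.25 and 0.06, so its direction depends on the probe. These are mRNA levels, and HIF activity is controlled mainly through the stability of the protein, which was not measured.

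Of the collagen hydroxylation genes, 1 read higher and 1 lower. P4ha1, a catalytic subunit of the enzyme that hydroxylates collagen prolines, read 2.79 and 2.53 with tamoxifen against 2.38 and 1.82 in mock cultures at day 4, and 2.81 and 2.62 against 2.32 and 1.87 at day 7 (differences 0.56 and 0.62, SE 0.25, limma adjusted p = 0.49 and 0.37). P4ha2, the alternative catalytic subunit, read 3.72 and 3.36 with tamoxifen against 3.90 and 3.77 at day 4. On day 7 the values were 3.52 and 3.40 with tamoxifen and 3.72 and 3.67 in mock cultures. P4ha2 was lower without overlap on both days by 0.29 and 0.24 (SE 0.22, limma adjusted p = 0.72 and 0.75).

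The carbonic anhydrase Car12 had the largest difference of any member and the widest spread. It read 0.75 and -0.95 with tamoxifen against -0.58 and -3.92 in mock cultures at day 4, and 0.41 and -1.74 against -1.19 and -4.80 at day 7. Replicate 1 stood above replicate 2 by 1.70 to 3.61 in every group, so the groups overlapped, and differences of 2.15 and 2.33 had an SE of 1.48 (limma adjusted p = 0.69 and 0.61). Aldoc, an aldolase, behaved in the same manner, with 1.55 and -0.46 with tamoxifen against 0.19 and -1.69 in mock cultures at day 7.

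**Figure D4:**
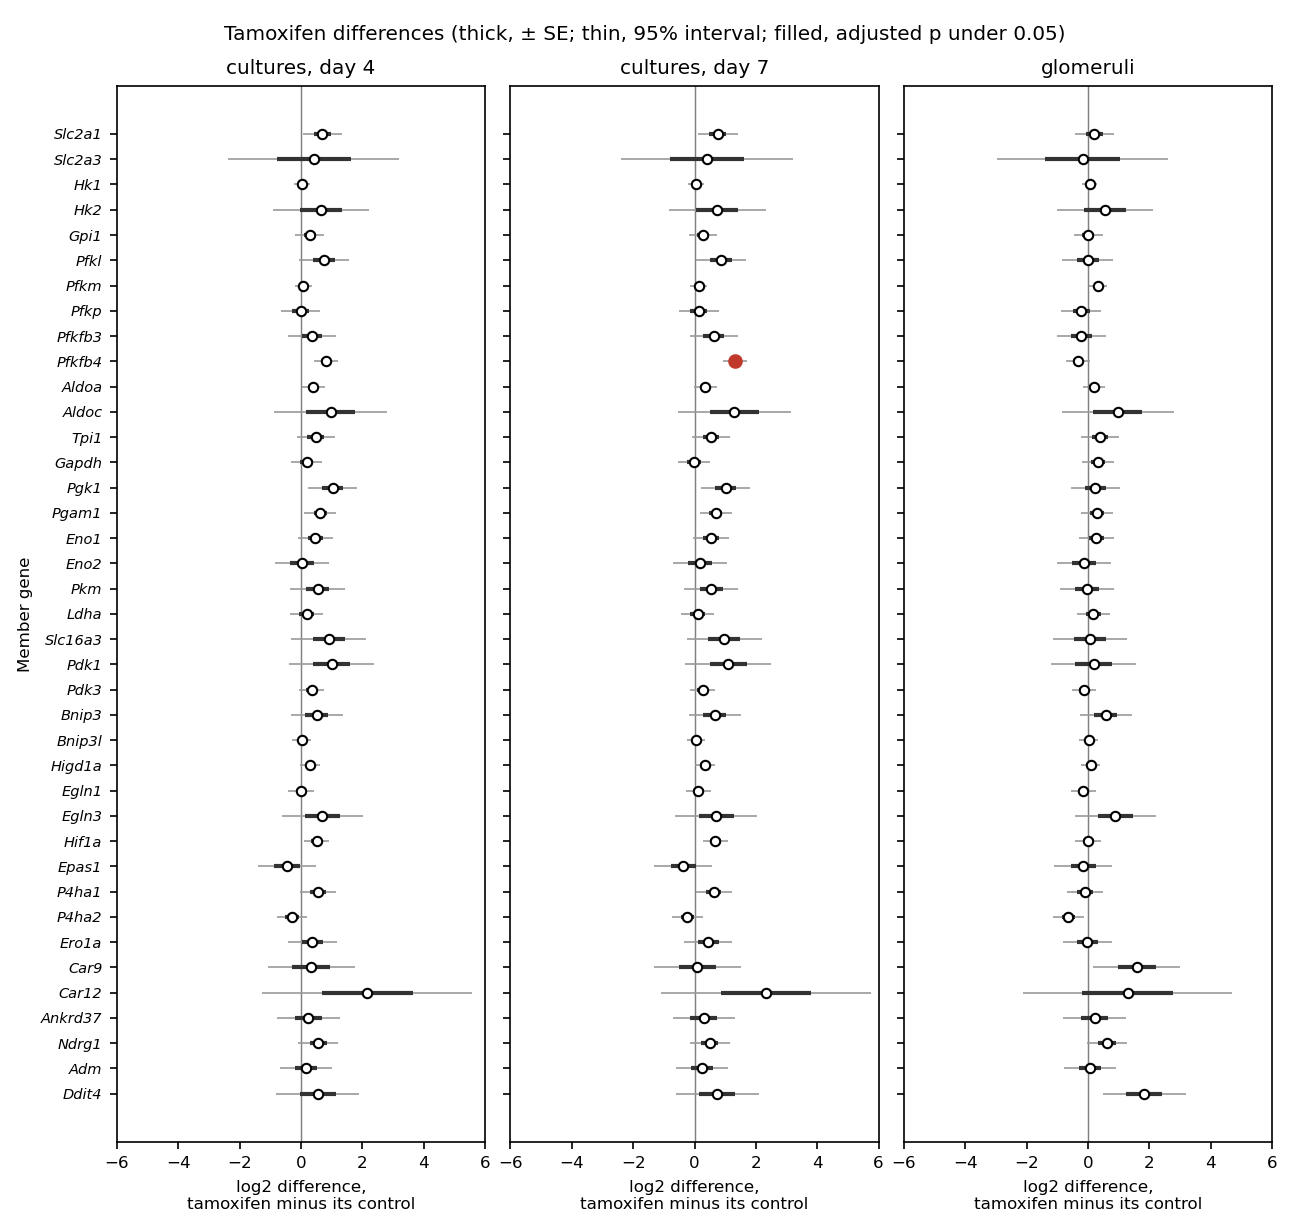
Points are log2 differences, tamoxifen minus its control, for the 39 members at day 4, at day 7 and in glomeruli, with thick bars for limma's SE, thin bars for its 95% interval and a filled point for an adjusted p under 0.05. Pfkfb4 at day 7 is the 1 filled point, and most points lie right of 0 in the 2 culture panels.

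In glomeruli the members as a list lay slightly higher with tamoxifen, by less than in cultures, with a few single genes further off. Means were higher for 26 of 39 members, and the median difference was 0.09 where that over all genes was -0.05. Of 13 members with several usable probes, 6 had another probe of opposite sign here, Pfkp, Slc16a3, Bnip3l, Gpi1, P4ha1 and Hk1. With each gene set relative to its mean over the 4 glomeruli, the median over members was 0.05 and 0.04 in treated mice. It was -0.11 and -0.07 in control mice. Over all genes those medians were -0.05 and 0.01 in treated and 0.03 and 0.01 in control mice. In the limma fit 0 members were called in either direction, with 4 at an unadjusted p under 0.05, while 1.75% of all genes were called higher and 0.854% lower. Both treated mice lay above both controls for 14 members (20% of all genes) and below for 4 (27.7%). Ddit4, an inhibitor of mTORC1 induced by low oxygen and by glucocorticoids, read 4.16 and 2.69 in treated and 0.93 and 2.25 in control glomeruli (difference 1.84 or 3.57-fold, SE 0.59, limma adjusted p = 0.15). Car9 read -3.27 and -5.27 in treated and -5.45 and -6.27 in control glomeruli (difference 1.60, SE 0.61, limma adjusted p = 0.22), and 1 of these 4 arrays was not above background. For both genes treated replicate 1 was far above treated replicate 2; without it Ddit4 was 2.15-fold higher and the Car9 difference was 0.59. Without control replicate 1 the Ddit4 difference was 1.18, and without treated replicate 2 that of Car9 was 2.60. P4ha2 read 2.12 and 1.44 in treated and 2.41 and 2.42 in control glomeruli (difference -0.64, SE 0.22, limma adjusted p = 0.17). Pfkm read 1.64 and 1.74 in treated and 1.42 and 1.30 in control glomeruli (difference 0.33, SE 0.12, limma adjusted p = 0.21). Ndrg1, a stress gene of epithelial cells, read 5.79 and 5.10 in treated and 4.71 and 4.92 in control glomeruli, and Aldoc 0.28 and 0.23 against -0.77 and -0.67. Neither pair overlapped, and neither gene was called. For Aldoc the pooled spread came mostly from the cultures, with standard deviations within groups of 0.51 to 1.42. In control and treated glomeruli they were 0.07 and 0.03. Slc2a1, Hif1a, Slc16a3 and Pgk1 differed by 0.21, 0.01, 0.06 (-0.09 on the other Slc16a3 probe) and 0.24.

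On the same glomerular arrays, markers of several cell types differed. Of 10 proximal tubule markers 10 were higher in both treated mice than in both controls and 1 was called, and their summed signal, in multiples of the array's 75th percentile, was 274 and 179 in treated against 82.6 and 96.7 in control glomeruli. The 12 podocyte markers, all with a lower mean and 2 of them called, summed to 332 and 438 in treated against 493 and 623 in control glomeruli. The 6 red blood cell markers, 4 of them called lower, summed to 0.906 and 7.45 against 87.6 and 39.3. Of 9 distal tubule and collecting duct markers 2 were called higher, with sums of 53.4 and 51.9 against 44.7 and 38.9. The 10 mesangial and mural markers all had a higher mean, 1 of them called, with sums of 73.5 and 79.5 against 86.4 and 45.2. The 10 endothelial markers all had a lower mean, 0 of them called in limma (1 at an unadjusted p under 0.05), with sums of 196 and 186 against 267 and 229. Of 10 immune markers 9 had a lower mean and 1 was called, with sums of 5.53 and 7.48 against 11.7 and 11.1. In these mixed samples, fewer cells of a type and less RNA per cell cannot be told apart. The part of these cell types in the members' values was not tested. In the 8 cultures the proximal tubule markers summed to at most 0.70 and the red cell markers to at most 0.16.

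The 3 tamoxifen comparisons share no arrays, but deviations of same-numbered cultures correlated between the days at 0.395 to 0.551. The culture days may thus not be independent. Across the 3 comparisons 6 members were higher without overlap in each, Aldoa, Pgk1, Pgam1, Eno1, Ndrg1 and Ddit4, where 4.81% of all genes were. P4ha2 was the 1 member lower without overlap in each, where 4.16% of all genes were. In mock cultures at day 7 against day 4 the members' median difference was -0.03, 0 were called and 0 had an unadjusted p under 0.05 in limma, where 0.0263% of all genes were called higher and 0.00657% lower. The days lie on separate slides, so day and slide cannot be told apart.

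Neighbouring genes of the same pathways gave few calls with tamoxifen. Among 23 tested genes for other glycolysis isozymes and branch enzymes, only Gys1, the muscle glycogen synthase, passed, and it did so in glomeruli and at day 7. It read -0.25 and -0.34 in treated against -0.91 and -1.09 in control glomeruli (difference 0.70, SE 0.11, limma adjusted p = 0.026). In cultures it read 1.18 and 1.01 with tamoxifen and 0.50 and 0.45 in mock cultures at day 4 (difference 0.62, limma adjusted p = 0.075). The day 7 values were 1.26 and 1.24 with tamoxifen and 0.52 and 0.50 in mock cultures (difference 0.74, limma adjusted p = 0.030). Gys1 was thus above its controls in every tamoxifen sample. Leaving out each of the 12 arrays in turn kept the glomerular call 4 times and the day 7 call 2 times, with adjusted p up to 0.12 and 0.18. Of 29 other hypoxia-inducible genes Sap30, a subunit of a histone deacetylase complex, passed in glomeruli with -2.01 and -1.94 in treated against -2.82 and -2.49 in control mice (difference 0.68, limma adjusted p = 0.048). Of 7 genes of gluconeogenesis and fructose use, Khk, the fructose kinase of proximal tubule and liver, passed in glomeruli with 4.87 and 4.16 against 3.25 and 3.33 (difference 1.22, limma adjusted p = 0.041). Each of those last 2 calls was kept by 1 of the 12 fits without an array (adjusted p up to 0.17 and 0.13). On those arrays 6 of these 7 genes had a higher mean, beside the tubule markers above. Among 6 oxygen-sensing and HIF subunit genes 0 passed with tamoxifen in limma, with 0 in glomeruli and at day 4 and 1 at day 7 at an unadjusted p under 0.05.

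The larger contrast lay between cultured podocytes and glomeruli. In mock cultures against control glomeruli 25 of 39 members rose and 5 fell, with a median difference of 0.96 where that over all genes was 0.18. Changes were common in this contrast: limma called 37.8% of all genes higher and 25.9% lower. Glomeruli and cultures were on different slides and scanned on different days, so tissue and slide cannot be told apart. The samples also differ in their cells. The 12 podocyte markers summed to 167 to 177 in mock cultures against 493 and 623 in control glomeruli, the 10 mesangial and mural markers to 436 to 501 against 86.4 and 45.2, and the 10 endothelial markers to 9.18 to 15.7 against 267 and 229. The 10 proximal tubule markers summed to 0.53 to 0.70 in mock cultures against 82.6 and 96.7 in control glomeruli. The 9 distal tubule and collecting duct markers summed to 0.19 to 0.33 against 44.7 and 38.9. The 7 parietal epithelial markers went the other way in sum, with 92.48 to 99.45 in mock cultures against 10.01 and 11.54 in control glomeruli. Of these 7, limma called 4 higher and 2 lower, and Krt8 and Krt18 were among those with a lower mean. The 10 immune markers summed to 11.9 to 21.6 against 11.7 and 11.1, and the 6 red blood cell markers to 0.093 to 0.158 against 87.6 and 39.3. The part of these cell types in the differences of the members and of the neighbouring genes was not tested.

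**Figure D5:**
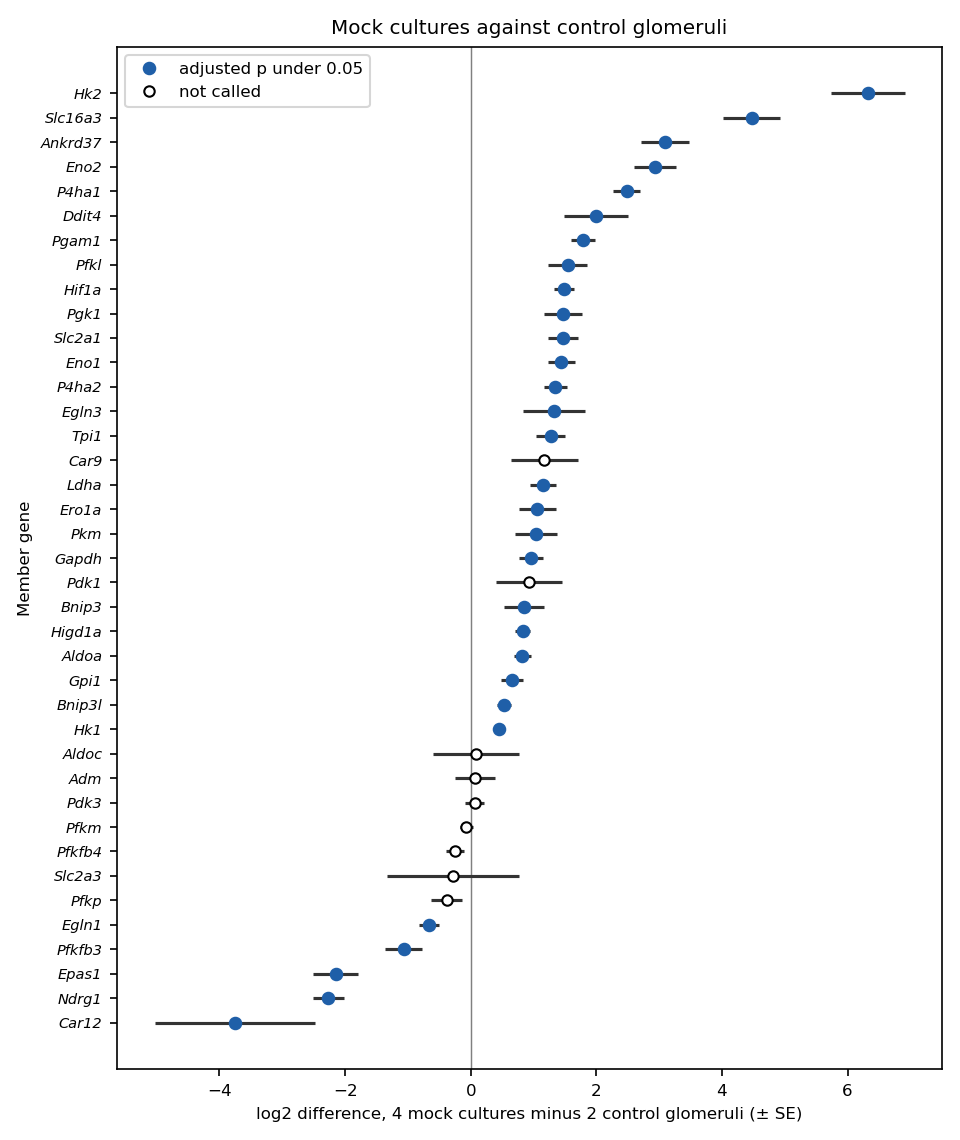
Points are log2 differences, the mean of 4 mock cultures minus the mean of 2 control glomeruli, with limma's SE, for the 39 members in order of size, filled where the adjusted p was under 0.05. Hk2 lies furthest right, as a value against control arrays on which it was not above background, and Car12 furthest left.

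The rise took in genes of each stage from uptake to lactate export. Hk2 was read in all 4 mock cultures (-0.88 to -0.26) and was not well above background in either control glomerulus, so it was at least 41.5-fold higher in mock cultures. For such a bound the mean of the mock cultures was set against a floor on each control array, its dimmest probe still well above background or the gene's own value, whichever was higher. The limma adjusted p of 4.8e-05 for Hk2 belongs to a difference of 6.32 that uses the dim control readings as they stood. It does not test the bound. Slc16a3 read 3.64, 2.79, 3.66 and 2.52 in mock cultures and -0.88 and -1.76 in control glomeruli, a difference of 4.47 (SE 0.46, limma adjusted p = 7.8e-05). Slc2a1 rose by 1.47, Pfkl by 1.55, Tpi1, triose phosphate isomerase, by 1.27, Gapdh by 0.96, Pgk1 by 1.48, Pgam1 by 1.79, Eno1 by 1.44, Pkm by 1.04 and Ldha by 1.16. The neuron-type enolase Eno2 read -0.83 to -0.53 in mock cultures against -3.24 and -3.97 in control glomeruli, a rise of 2.94 (SE 0.33). Smaller rises were those of Aldoa (0.82), Gpi1, glucose phosphate isomerase (0.66), and Hk1 (0.45). The other Hk1 probe gave -0.17, and the Hk1 call was lost with quantile normalization and when its probes were averaged. All 6 members of the lower pathway rose, and of 11 of the upper pathway 6 rose and 1 fell. The Gpi1 call was lost without control glomerulus 2 (adjusted p = 0.071), and that of Pkm was kept by 8 of the 12 fits without an array, failing without control glomerulus 1 or 2, day 4 mock replicate 1 or day 7 mock replicate 1 (adjusted p up to 0.11).

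HIF target genes outside glycolysis rose as well. Ankrd37, a target of HIF-1, read -1.76 to -0.65 in mock cultures against -4.36 and -4.28 in control glomeruli, a rise of 3.10 (SE 0.38, limma adjusted p = 0.00022). P4ha1 read 1.82 to 2.38 in mock cultures and -0.63 and -0.13 in control glomeruli, a rise of 2.48 (SE 0.22, limma adjusted p = 3.6e-05). Ddit4 rose by 2.00, P4ha2 by 1.35, Egln3, an oxygen-sensing prolyl hydroxylase, by 1.33, and Ero1a, the oxidase of disulfide formation in the endoplasmic reticulum, by 1.06. The mitophagy receptors Bnip3 and Bnip3l rose by 0.86 and 0.53 (-0.09 on 1 of the other 3 Bnip3l probes), and Higd1a, a small protein of the mitochondrial inner membrane, by 0.83. The calls of Bnip3 and Egln3 were each kept by 5 of the 12 fits without an array (adjusted p up to 0.20 and 0.36), and those of Ddit4 and Ero1a were lost without control glomerulus 1 (0.091 and 0.089).

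Opposite to them, 5 members fell in mock cultures. The HIF alpha subunits again lay on opposite sides: Hif1a rose by 1.49 (SE 0.15, limma adjusted p = 8.6e-05), with 1.16 to 1.64 in mock cultures against 0.09 and -0.18 in control glomeruli. Epas1 fell by 2.15 (SE 0.36, limma adjusted p = 0.0010), with 4.02 to 4.79 in mock cultures against 6.81 and 6.29 in control glomeruli. In the kidney Epas1 is known from endothelial and interstitial cells. Its other 2 probes gave -1.44 and 0.06, so the fall does not hold for all its probes. Ndrg1 fell by 2.27 (SE 0.24, limma adjusted p = 0.00010), with 2.38 to 2.71 in mock cultures and 4.71 and 4.92 in control glomeruli. Car12 fell by 3.75 (SE 1.28, limma adjusted p = 0.032), with -4.80 to -0.58 in mock cultures against 0.35 and 1.91 in control glomeruli, and its call was lost without control glomerulus 1 or 2 or mock replicate 2 of either day (adjusted p up to 0.18). Pfkfb3, the inducible relative of Pfkfb4, fell by 1.07, and Egln1, the main oxygen-sensing prolyl hydroxylase, fell by 0.66. The Pfkfb3 call was lost without control glomerulus 1 or 2 (adjusted p up to 0.064) and the Egln1 call without control glomerulus 1 (adjusted p = 0.056). Among the 9 members not called, Car9 was at 1.17 and Pdk1 at 0.93 (limma adjusted p = 0.085 and 0.15), and the other 7, Slc2a3, Pfkm, Pfkp, Pfkfb4, Aldoc, Pdk3 and Adm, the gene of the vasodilator peptide adrenomedullin, lay between -0.38 and 0.09. Pfkp was at -0.38 on the probe used and at 0.60 on a second one.

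Genes of the neighbouring lists went both ways in this contrast, in which limma called 37.8% of all genes higher and 25.9% lower. Of 29 other hypoxia-inducible genes 17 rose and 2 fell in mock cultures. Lox, the enzyme that cross-links collagen, was at least 623-fold and Tmem45a at least 42.7-fold higher. Vegfa, the angiogenic factor that podocytes supply to glomerular endothelium, fell by 1.42 and the nuclear receptor Rora by 1.36. Of 23 glycolysis isozymes and branch enzymes 10 rose and 8 fell. Pdk4 rose by 3.25, Gys1 rose by 1.49 and Hk3 was at least 6.46-fold higher. The muscle mutase Pgam2 was at least 114-fold and the transporter Slc2a2 at least 17.9-fold lower. Of 7 genes of gluconeogenesis and fructose use 6 fell, among them Fbp1, at least 986-fold, Pck1, at least 418-fold, and G6pc, at least 138-fold lower. The proximal tubule markers also summed lower in mock cultures, as given above, and their part in these falls was not tested. Of the 6 oxygen-sensing and HIF subunit genes, Hif1an, which encodes the asparaginyl hydroxylase of HIF, fell by 1.04 and Arnt2 by 0.94.

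HIF binds DNA at a short core, ACGTG in its most common form, so the promoters of the members were read for these letters. RefSeq windows of 300 bases, from 250 before to 50 after the start of a gene (GRCm38.p6), were matched by symbol for 36 of 40 members, with 51 windows in all. Bnip3l, Epas1, Ndrg1 and Slc2a3 were not matched. The letters ACGTG stood on either strand in 58.8% of the members' windows, where 19.6% of all 32851 windows and 23.5% of the 15280 windows of genes tested on the arrays held them. By gene, 26 of 36 members had at least 1 such window, or 72.2%, against 27.2% of tested genes. With GCGTG counted as well, the shares were 80.4% of the members' windows, 43.8% of all windows and 57.5% of those of tested genes. The list was put together from known hypoxia genes, some of which were first found through such sites, so this share describes the list. An ACGTG can also be part of CACGTG, the site of Myc and related factors, which 9.80% of the members' windows held, close to the 9.12% of windows of tested genes and the 7.15% of all windows.

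Promoters are shown for Hk2, Slc16a3, P4ha1 and Pgk1, and for Pfkfb4, the 1 member called with tamoxifen. The first 4 rose in mock cultures against control glomeruli and read higher in all 4 tamoxifen than in all 4 mock cultures. Slc2a1, Pfkl, Aldoa, Pgam1, Higd1a and Hif1a did both as well and are not shown. Of these, Pfkl had no ACGTG window, while the others did. Capitals mark ACGTG or GCGTG on the strand shown, or CACGT and CACGC, which are the same letters on the other strand. Each runs 5′ to 3′ on the gene's own strand.
Hk2, chr6:82774405-82774704, minus strand: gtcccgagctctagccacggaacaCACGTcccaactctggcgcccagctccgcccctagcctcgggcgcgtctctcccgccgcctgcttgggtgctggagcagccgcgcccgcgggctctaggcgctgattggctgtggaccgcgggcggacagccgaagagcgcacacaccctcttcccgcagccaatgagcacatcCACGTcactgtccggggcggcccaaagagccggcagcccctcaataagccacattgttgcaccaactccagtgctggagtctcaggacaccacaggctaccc
Slc16a3, chr11:120948817-120949116, plus strand: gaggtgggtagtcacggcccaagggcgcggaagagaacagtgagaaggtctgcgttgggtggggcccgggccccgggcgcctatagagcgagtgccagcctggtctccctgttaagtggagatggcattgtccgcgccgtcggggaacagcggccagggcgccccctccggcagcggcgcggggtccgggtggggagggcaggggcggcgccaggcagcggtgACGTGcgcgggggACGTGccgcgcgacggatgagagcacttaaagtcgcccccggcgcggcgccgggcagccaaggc
P4ha1, chr10:59323046-59323345, plus strand: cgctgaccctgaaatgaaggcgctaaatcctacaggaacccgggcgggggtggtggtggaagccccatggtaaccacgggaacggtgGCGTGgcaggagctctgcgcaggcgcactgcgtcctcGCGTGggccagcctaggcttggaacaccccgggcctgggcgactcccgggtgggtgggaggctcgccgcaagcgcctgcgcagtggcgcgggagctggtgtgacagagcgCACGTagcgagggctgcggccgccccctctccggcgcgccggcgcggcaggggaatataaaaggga
Pgk1, chrX:106186850-106187149, plus strand: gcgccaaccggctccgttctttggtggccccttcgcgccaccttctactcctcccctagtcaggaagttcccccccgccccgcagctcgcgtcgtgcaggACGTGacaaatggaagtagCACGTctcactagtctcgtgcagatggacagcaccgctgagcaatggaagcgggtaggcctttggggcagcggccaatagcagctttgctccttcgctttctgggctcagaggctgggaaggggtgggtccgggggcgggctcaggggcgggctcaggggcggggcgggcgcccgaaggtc
Pfkfb4, chr9:108991652-108991951, plus strand: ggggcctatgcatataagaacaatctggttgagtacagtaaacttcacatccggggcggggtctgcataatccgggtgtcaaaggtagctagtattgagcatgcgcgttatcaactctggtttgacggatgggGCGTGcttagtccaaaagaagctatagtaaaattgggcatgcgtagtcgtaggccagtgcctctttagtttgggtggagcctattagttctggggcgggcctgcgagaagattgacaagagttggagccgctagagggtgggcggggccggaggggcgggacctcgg

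Counted from the first transcribed base as 1, with the base before it as -1, the core began at -226 and -52 in Hk2, at -27 and -14 in Slc16a3 and at -150 and -131 in Pgk1. P4ha1 held 1 ACGTG, on the other strand at -16, and 2 GCGTG, at -163 and -126. Pfkfb4 held 0 ACGTG and 1 GCGTG, at -117. Of the 24 matched members that rose in mock cultures against control glomeruli 19 had an ACGTG window, as had 2 of the 3 matched members that fell and 4 of the 8 not called. A match says only that the letters are there, and no binding was measured.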

How the data were processed

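Each sample's total RNA was measured with Cy3 on 1 Agilent one-colour array. Per the file headers, Feature Extraction 11.5.1.1 wrote the deposited files, which give the linear intensity of each spot and a processed signal with background subtracted. The authors also deposited a table of log2 values, which matched the log2 processed signal relative to its 75th percentile up to a constant per array and were used as an alternative. The array's design build is not that of the promoter table, and genome coordinates are given for promoters only.

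The log2 of the processed signal minus each array's 75th percentile was used. Probes were named through their RefSeq accession (assembly GRCm38.p6, 26581 of 39429 probes), kept when above background on at least 2 of 12 arrays, and a gene was represented by its probe with the highest mean, which left 15230 genes. With limma 3.58.1 in R 4.3.3, 6 group means were fitted over all arrays (lmFit and eBayes, 6 residual and 1.87 prior degrees of freedom), without a block, and p-values were adjusted by Benjamini-Hochberg. The fit was tested on simulated data. Slide 1 held the glomeruli, slide 2 day 4 and slide 3 day 7, so each tamoxifen comparison lies within a slide and scan day, and a slide or scan-day block leaves it unchanged. The number of arrays limits the precision, and 0 spots were saturated.

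Members and lists were chosen with earlier results of these data known. All 40 members were described: called members with their values, the others by ranges or by the lowest p, and up to 3 called genes each way from each neighbouring list. The values of 2 such genes are not reported here. Alternatives were other background, scaling, filter, probe, variance and block settings, and leaving out each array. For normexp the median spot signal replaced the mean signal.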

Additional observations from a re-analysis of the deposited data

Results flagged for a closer look

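The tamoxifen response of Pfkfb4 in glomeruli minus its mean response in cultures was -1.40 on the log2 scale (SE 0.21, limma adjusted p = 0.034), which singled it out because the test of the difference between the tissues itself passed. Both tamoxifen mice read below both control mice, and all 4 tamoxifen cultures read above all 4 mock cultures. The call was kept by 2 of the 12 fits without an array, and was lost with normexp (adjusted p = 0.10).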

How the results depend on the processing

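Of 11 alternative settings, most left the counts of called members as they were or within 1.5 times. In mock cultures against control glomeruli 27 to 32 members were called over these settings and 22 to 30 when 1 array was left out, with 22 of the 30 kept without control glomerulus 1. The Pfkfb4 call at day 7 was lost on the 4 day 7 arrays alone, which called 0 members. With 1 array left out the counts were 0 to 1 at day 7, in glomeruli and in the glomerular minus culture response, and 0 at day 4, in the day 7 minus day 4 response and between mock days. Normexp called 4 members at day 4 (Car9, Egln1, P4ha2 and Pfkfb4) and 0 in the glomerular minus culture response. On that scale the 10th percentile of genes' probes was -1.30 and -2.50 on the day 4 tamoxifen arrays against -3.40 and -3.30 on the day 4 mock arrays; for tamoxifen against mock cultures at day 4 it called 5058 of all genes, against 32 in the setting reported, and the cause was not tested. Epas1 at day 4 was the 1 named value that changed sign, with -0.99 to 0.074 when 1 array was left out (0.074 without day 4 tamoxifen replicate 2). The motif share was 58.8% with ACGTG and 80.4% with GCGTG added.

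With the replicate number as a block within each tissue, 1 member was called in glomeruli (Car9), 2 at day 4 (Pgk1 and Slc16a3) and 8 at day 7 (Pfkfb4, Pfkl, Tpi1, Pgk1, Eno1, Slc16a3, Pdk1 and Hif1a). With the block in cultures alone, chosen after seeing the data, 1 was called at day 4 and 6 at day 7. Deviations of same-numbered cultures correlated at 0.395 to 0.551 and those of glomeruli at 0.21, over 2 numbers per group. The labels do not say that a number marks a shared animal, litter or day, so the samples were taken to share only a number. Members higher with tamoxifen in all 4 same-number differences were 27 of 39, against 27.4% of all genes. The slide and scan-day blocks were not run as separate fits, since they leave comparisons within a slide unchanged and cannot be told apart from the groups in the others.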
